A study of Mus musculus with 180 samples.

Results

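Liver was compared with kidney in 4 female C57BL/6J mice, 6 weeks old, that had been given PBS and no lipopolysaccharide, with tissues taken at 12 hours. Both organs came from each mouse, so the comparison was within animals, with 4 liver libraries against 4 kidney libraries. They are 8 of 180 libraries in the series, and all 13820 genes of the table were considered. The series also holds 13 other tissues of these mice, whose levels are set beside both organs where stated, and 8 mice given LPS, 4 of them TNF knockouts, which were not used. The labels name no transgene or mutant allele in the 4 mice, and before collection the mice were perfused with PBS and 1 mM EDTA, which washes blood out of the vessels. Liver was broken up in M tubes on a gentleMACS dissociator and kidney with ceramic beads on a PowerLyzer, so lysis method and organ cannot be told apart.

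Liver and kidney share a metabolic base and then part. Hepatocytes make most plasma proteins, bile acids and urea, burn and store glucose and fat, and oxidise foreign compounds. Kidney tubules reabsorb what the glomerulus filters, segment by segment, with sodium-driven transporters powered by Na,K-ATPase, and they also make glucose, activate vitamin D and excrete acid. A whole-organ library averages over all of these cells, and fewer cells of a type and less RNA per cell cannot be told apart.

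RNA was measured by sequencing from the poly(A) tail, which tags the 3′ end of transcripts. Values are the authors' scaled signal, given below for mice 1 to 4 in that order. Recovered counts summed to 788203, 924524, 804565 and 851101 in the livers and 1401015, 1874075, 1632586 and 1350853 in the kidneys. Liver libraries were thus shallower, and 3 counts stood for a signal of 5.20 to 6.00 in liver and 1.64 to 2.14 in kidney. Limits of this kind cover counting error only. The 10 most abundant genes held 21.4 to 22.4% of the signal in liver, 11.2 to 11.7% of it Alb alone, and 13.4 to 14.8% in kidney. Mitochondrially encoded genes held 6.14 to 7.65% in liver and 12.2 to 14.3% in kidney. Genes of neighbouring organs stood out in 2 livers. The liver of mouse 4 had 67.0 of Ctrb1, a pancreatic chymotrypsinogen, against 10.4 to 12.0 in the other livers. Exocrine pancreas markers summed to 65 to 527.5 over the livers and 146.7 to 188.7 over the kidneys. In kidney 1 marker averaged 163, so that sum rested mostly on it, and Ctrb1 averaged 0.827 there. The liver of mouse 2 had 43.3 of Hsd3b1, a steroid enzyme of the adrenal and gonads, against 1.86 to 12.3 in the other livers, and adrenal markers summed to 182 to 296.5 over the livers and 129 to 151 over the kidneys. Of these lists, 1 of 6 pancreatic and 0 of 7 adrenal markers tested passed the 2-fold test described next, and without mouse 3 it was 5 pancreatic markers. With edgeR 5 pancreatic and 2 adrenal markers were over 2-fold higher in liver. Without mouse 4, 734 genes were called over 2-fold higher and 796 lower, and without mouse 2, 742 and 780.

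The organs differed widely. Of 13225 genes tested, 2346 were higher in liver (17.7%) and 3207 lower (24.2%) at an adjusted p below 0.05 (limma's moderated test with mouse as a block). A test against a 2-fold difference called 773 genes higher in liver (5.84%) and 859 lower (6.5%), and the counts and adjusted p-values below are from this test unless they say otherwise. Replicates here are separate mice, and each difference is given on the log2(signal + 1) scale, liver minus kidney, with its standard error (SE). Every liver library lay above every kidney library for 2334 genes (17.6%) and below for 3048 (23.0%). The median difference over all genes tested was -0.12 on the log2 scale. Genes called over 2-fold higher in liver made up 45.3 to 46.0% of the liver signal and 3.76 to 3.98% of the kidney signal. Those called lower made up 1.23 to 1.30% of the liver signal and 15.6 to 16.4% of the kidney signal. Liver-high genes thus took a much larger share of the liver signal than kidney-high genes took of the kidney signal. The split depends on the scaling. Rescaling each library to the same plain total moved the median over all genes to -0.67 and gave 1216 genes higher and 7050 lower at any size, so that 14.7% of calls were higher in place of 42.2%.

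**Figure D1:**
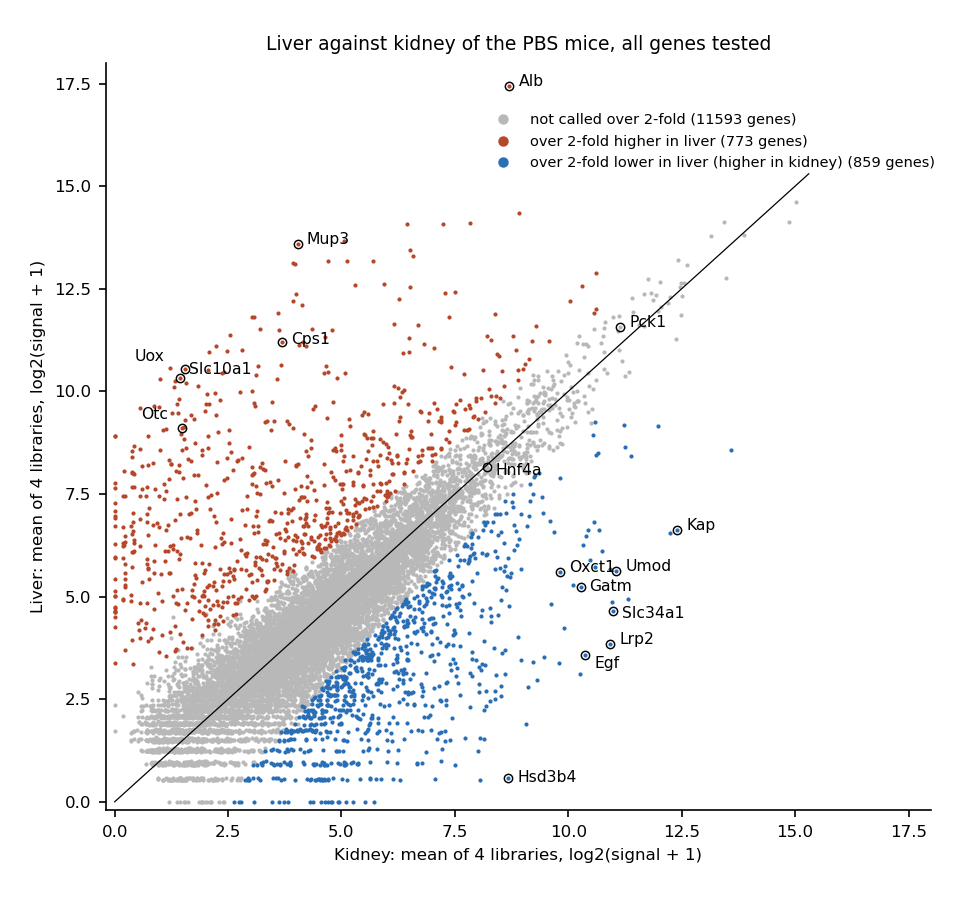
Mean log2(signal + 1) of the 4 livers (vertical) against the 4 kidneys (horizontal) for the 13225 genes tested, coloured by the test against a 2-fold difference, with 16 genes circled and a line of equal values. Alb and Mup3 lie far above the line, Hnf4a and Pck1 on or near it, and Umod, Lrp2 and Hsd3b4 far below.

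Defining markers matched the labelled organs. Alb, coding for albumin, gave 183157, 181521, 174471 and 168050.0 in liver, against 456, 424, 390.1 and 390.3 in kidney. Cps1, the first enzyme of the urea cycle, gave 2276, 2747, 2064 and 2281 in liver, against 9.77, 11.5, 10.8 and 15.7 in kidney. Umod, coding for uromodulin, the main protein of normal urine, gave 56, 48.5, 42.7 and 45.9 in liver, against 2301, 2321, 1961 and 1958 in kidney. Slc34a1, the phosphate transporter of the proximal tubule, gave 28, 29.5, 20.4 and 17.6 in liver, against 1905, 2107, 2213 and 1849.9 in kidney. In all 4 genes every library of 1 organ lay far above every library of the other. The same complete separation holds for each gene given below with its values and an adjusted p of the 2-fold test. The differences were 8.73, 7.51, -5.44 and -6.37 on the log2 scale, with adjusted p-values in the 2-fold test of 4.6e-30, 3.5e-24, 5.8e-23 and 1.1e-22.

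**Figure D2:**
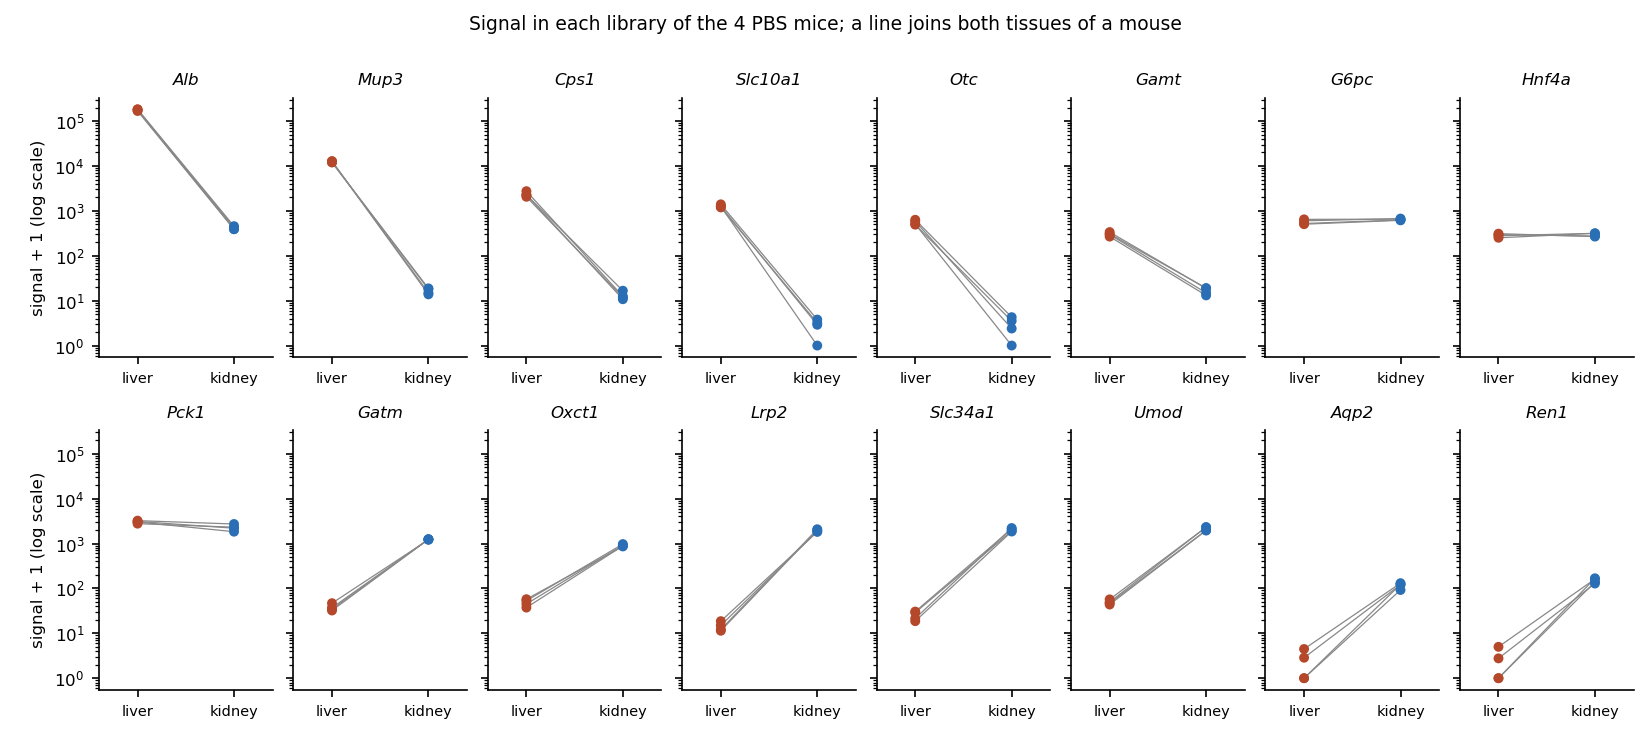
Signal plus 1 on a log axis for 16 genes in each of the 8 libraries, liver on the left and kidney on the right of each panel, with a line joining both organs of a mouse. The 4 mice lie close together in each organ, G6pc, Hnf4a and Pck1 run nearly level, and the other panels slope down (higher in liver) or up (higher in kidney).

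Genes with large differences encoded proteins of several kinds, with enzymes and transporters on both sides. Mup3, a carrier of pheromones in urine that is made in liver, had the largest of the genes named, with 12727, 12073, 12045 and 12805 in liver and 14, 17, 17.8 and 12.8 in kidney (9.58, SE 0.10, adjusted p = 5.6e-28). Uox, urate oxidase, had 1652, 1725, 1299 and 1291 in liver, against 0, 4.38, 2.54 and 0.712 in kidney (9.27, SE 0.25, adjusted p = 7e-20). Slc10a1, which takes bile acids out of the portal blood, had 1399.7, 1193, 1267 and 1258 in liver, against 2.79, 2.19, 1.91 and 0 in kidney (9.04, SE 0.22, adjusted p = 8.8e-21). The kidney values of Uox and Slc10a1 stood for 13 and 11 counts over the 4 kidneys, so the size of these differences is poorly set at the low end. At the other end, Hsd3b4, a steroid dehydrogenase of mouse kidney, had 2, 0, 0 and 0 in liver, against 384, 401, 430.1 and 416 in kidney (-8.28, SE 0.28, adjusted p = 1.6e-17). Slc22a8, the organic anion transporter OAT3, had 2, 3.47, 0 and 5.29 in liver, against 494, 617, 588 and 440.2 in kidney (-7.45, SE 0.29, adjusted p = 4.9e-16). Lrp2, coding for megalin, the endocytic receptor for filtered protein, had 14, 10.4, 11.2 and 17.6 in liver, against 1863, 2003, 2080.2 and 1816 in kidney (-7.11, SE 0.13, adjusted p = 6.3e-23). In liver, Hsd3b4 and Slc22a8 rested on 1 and 6 counts over the 4 libraries. Egf, which the distal tubule secretes into urine, had 6, 12.1, 9.29 and 15.9 in liver, against 1298, 1280.3, 1432 and 1271 in kidney (-6.88, SE 0.16, adjusted p = 6.1e-21). Kap, a kidney protein under androgen control in mice, was the most abundant of the kidney genes named, with 98, 108, 87.3 and 98.8 in liver, against 4578, 4852, 6122 and 5993 in kidney (-5.76, SE 0.10, adjusted p = 2.4e-23). Others with very large differences were Cyp2c50, Serpina1c, Cyp2c29, Akr1c6, Rdh7 and Ugt2b36 on the liver side (differences of 9.46, 9.21, 9.02, 8.91, 8.91 and 8.88) and Akr1c21, Slco1a6, Tmem174 and Slc7a12 on the kidney side (differences of -7.20, -6.98, -6.88 and -6.56). Mup, Cyp2c, Cyp3a, Serpina1, Ugt2b, Akr1c and Slc22a genes have near-identical copies. The labels do not state how reads shared by copies were counted, so single members of these families are uncertain. Cyp3a41a and Cyp3a41b were listed with the same values, 444, 435, 516 and 517 in liver, against 0 in the 4 kidneys.

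Transcription factors fell on both sides. Of 60 listed liver and kidney factors tested, 14 were over 2-fold higher in liver and 26 lower, with a median difference of -1.29. Hnf4a, a nuclear receptor that drives both hepatocyte and proximal tubule genes, had 309.9, 279, 251 and 295 in liver, against 267, 315, 316 and 274 in kidney. The groups overlapped and no difference was called (-0.05, SE 0.10, adjusted p = 0.76 at any size), but after plain per-million rescaling Hnf4a was called lower in liver, at -0.67 (adjusted p = 8.9e-07, limma). Nr1h4, the bile acid receptor FXR, was 0.77 higher and was not called over 2-fold. Nr5a2, a nuclear receptor of bile acid synthesis, had 48, 48.5, 52 and 54.7 in liver, against 0.698, 0.548, 0 and 1.43 in kidney (5.03, SE 0.37, adjusted p = 1.3e-09). Creb3l3, which drives fasting and lipid genes, differed by 4.96, Nr1i3, the xenobiotic receptor CAR, by 4.74 and Foxa3, a forkhead factor, by 4.54. Nr5a2 and Nr1i3 stood for 4 and 2 counts over the 4 kidneys. Tfcp2l1, a factor of the distal nephron and collecting duct, had 16, 5.2, 5.57 and 10.6 in liver, against 148, 174, 238 and 163 in kidney (-4.24, SE 0.24, adjusted p = 2.1e-11). Ppargc1a, a coactivator of mitochondrial genes, differed by -2.53 and Emx1, a homeobox factor, by -4.39, both over 2-fold lower in liver. Pax8, a factor of kidney development, had 34, 36.4, 42.7 and 17.6 in liver, against 57.2, 59.2, 64.8 and 54.9 in kidney, lower in liver at any size (-0.90, SE 0.19, adjusted p = 0.00041 at any size) and not over 2-fold. Of 14 Hox genes tested, which encode position along the body axis, 11 were over 2-fold lower in liver and 0 higher, with a median of -3.64. Hoxd8 for example had 2, 6.94, 0 and 3.53 in liver, against 52.4, 53.2, 59.1 and 56.3 in kidney (-4.12, SE 0.39, adjusted p = 2.2e-07).

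The 5 promoters below, 250 bases before to 50 bases after the start, are shown because the letters GTTAAT, the core of a homeodomain factor motif, stand in promoters of genes of both organs. They are RefSeq sequences of build GRCm38.p6 in the direction of the gene, for 2 genes of the plasma protein list that are high in liver and 3 transport or secretion genes that are high in kidney. Capitals mark the core, and ATTAAC is the core read on the opposite strand.
Alb: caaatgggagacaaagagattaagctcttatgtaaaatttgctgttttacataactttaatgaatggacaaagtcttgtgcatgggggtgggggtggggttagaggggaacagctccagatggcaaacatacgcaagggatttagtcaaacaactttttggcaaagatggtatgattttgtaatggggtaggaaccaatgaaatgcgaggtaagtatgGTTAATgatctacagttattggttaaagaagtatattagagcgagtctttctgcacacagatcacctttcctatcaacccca
Gc: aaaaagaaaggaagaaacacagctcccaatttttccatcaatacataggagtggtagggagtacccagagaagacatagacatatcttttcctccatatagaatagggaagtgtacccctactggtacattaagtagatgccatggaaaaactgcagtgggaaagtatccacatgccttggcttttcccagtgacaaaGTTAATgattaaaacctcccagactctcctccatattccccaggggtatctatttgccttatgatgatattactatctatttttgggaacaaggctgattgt
Slc22a8: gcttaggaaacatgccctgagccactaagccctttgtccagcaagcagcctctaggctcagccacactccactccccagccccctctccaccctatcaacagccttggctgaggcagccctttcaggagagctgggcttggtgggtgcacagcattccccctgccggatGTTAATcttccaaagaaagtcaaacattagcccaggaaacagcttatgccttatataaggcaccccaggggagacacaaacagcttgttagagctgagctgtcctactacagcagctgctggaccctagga
Slc34a1: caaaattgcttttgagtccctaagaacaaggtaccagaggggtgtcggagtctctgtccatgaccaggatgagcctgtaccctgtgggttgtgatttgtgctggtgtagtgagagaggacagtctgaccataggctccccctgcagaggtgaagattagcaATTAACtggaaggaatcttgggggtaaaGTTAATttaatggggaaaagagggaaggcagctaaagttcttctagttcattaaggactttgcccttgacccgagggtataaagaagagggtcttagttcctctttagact
Umod: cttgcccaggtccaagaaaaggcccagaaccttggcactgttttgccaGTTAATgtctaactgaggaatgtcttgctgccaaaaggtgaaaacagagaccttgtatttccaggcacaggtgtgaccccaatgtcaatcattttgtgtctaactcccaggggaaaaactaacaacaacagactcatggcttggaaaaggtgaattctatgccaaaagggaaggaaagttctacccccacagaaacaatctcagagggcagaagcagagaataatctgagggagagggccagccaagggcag
The core begins 32 bases before the start of Alb, 52 before Gc, 81 before Slc22a8, 89 and 61 before Slc34a1 and 202 before Umod. Positions are Alb chr5:90460620-90460919 (forward strand), Gc chr5:89457849-89458148 (reverse strand), Slc22a8 chr19:8592932-8593231 (forward strand), Slc34a1 chr13:55399398-55399697 (forward strand) and Umod chr7:119479213-119479512 (reverse strand). Of 32851 RefSeq promoters of this length, 2332 (7.1%) hold the core on either strand. It stood in 81 of 721 promoters (11.2%) of genes over 2-fold higher in liver, in 81 of 818 (9.9%) of genes over 2-fold lower, and in 493 of 11181 (4.41%) of the other genes tested. In the plasma protein list the share was 25.7% (9 of 35 promoters) and in the proximal tubule list 15.6% (10 of 64). The core was thus found beside genes of both organs. The printed promoters are chosen examples that hold it and add no support, since most promoters of both lists did not hold it. These shares carry no test, the gene sets were not matched for base composition, and a match describes letters, not a bound site.

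Plasma proteins were the clearest liver group. Of 40 listed genes, 40 were higher in liver, 39 of them over 2-fold, with a median difference of 6.91, and all 40 had their highest level in liver among the 15 tissues. Over all 13225 genes tested, 1108 had their highest level in liver. Apoa1, the main protein of HDL, had 13149, 11831, 9434 and 9800.3 in liver, against 87.2, 103, 81.3 and 89.8 in kidney (6.91, SE 0.09, adjusted p = 2.2e-26). Gc, the vitamin D binding protein, had 17082, 18832, 16816 and 17409 in liver, against 229.6, 267, 216 and 192 in kidney (6.28, SE 0.08, adjusted p = 3e-26). Ahsg, coding for fetuin-A, had 9912, 9601, 8518 and 8696 in liver, against 23.7, 27.9, 25.4 and 23.5 in kidney (8.46, SE 0.09, adjusted p = 1.1e-27). Trf, coding for transferrin, differed by 6.73, Apob, the structural protein of VLDL, by 4.67, and Fga, a fibrinogen chain, by 5.12. The member that missed the 2-fold test was Kng2, a kininogen, at 396, 459.5, 429 and 374 in liver, against 318, 333, 313 and 271 in kidney. Its groups did not overlap, but the difference (0.42, SE 0.09, adjusted p = 0.0005 at any size) turned to -0.20 after plain per-million rescaling. Summed over the list, kidney held 0.691% of the liver level, and the other 13 tissues held 0.394 to 2.15% with a median of 0.638%. The kidney sum thus lay inside the range of the other tissues.

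Most bile acid genes were higher in liver. Of 26 tested, 17 were over 2-fold higher in liver and 2 lower, with a median of 4.55. At any size 21 were higher and 4 lower, and after plain per-million rescaling 4 were over 2-fold lower. Cyp7a1, the rate-limiting enzyme, had 18, 15.6, 76.2 and 37 in liver, against 0, 0, 0 and 0.712 in kidney (4.76, SE 0.46, adjusted p = 1.8e-07). Mouse 3 had the highest liver value and mouse 2 the lowest. Cyp8b1, which sets the share of cholic acid, differed by 6.47. Abcb11, the canalicular export pump, had 468, 513, 455 and 498 in liver, against 0, 0, 1.91 and 0.712 in kidney (8.34, SE 0.26, adjusted p = 2.6e-18). The ileal-type transporter Slc10a2, which recovers bile acids from urine in the tubule, ran the other way, with 28, 24.3, 7.43 and 24.7 in liver, against 116, 149, 132 and 118 in kidney (-2.69, SE 0.23, adjusted p = 8.2e-07). Slc51b, a subunit of the basolateral bile acid exporter, was also lower in liver, with 8, 8.67, 13 and 10.6, against 94.2, 99.8, 85.1 and 67.7 in kidney (-2.99, SE 0.22, adjusted p = 3.1e-08), and its partner Slc51a was lower in liver at any size, by -1.66, with an adjusted p of 0.067 in the 2-fold test (limma). The other gene lower at any size was Slc27a2, an acyl-CoA synthetase of very long chain fatty acids and bile acids, with 1318, 1087, 1752 and 1517 in liver, against 2727, 2347, 2716 and 2636 in kidney (-0.90, SE 0.08, adjusted p = 1.5e-09 at any size).

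Genes of nitrogen handling were divided between the organs. Of 15 genes of the urea cycle and arginine list, 9 were over 2-fold higher in liver and 3 lower. Otc, which makes citrulline, had 586, 633, 492 and 508 in liver, against 1.4, 3.29, 2.54 and 0 in kidney (7.81, SE 0.24, adjusted p = 3.1e-18). Arg1, the cytosolic arginase that releases urea, had 1266, 1398, 1085 and 1307 in liver, against 14.7, 11.5, 6.35 and 11.4 in kidney (6.77, SE 0.13, adjusted p = 4.5e-22). Ass1, argininosuccinate synthase, which also makes arginine in the proximal tubule, was close to level, with 2739, 2238, 2547 and 2955 in liver, against 1680.0, 1913, 1651 and 1705 in kidney. The liver values were all higher (0.59, SE 0.09, adjusted p = 2.9e-06 at any size), but after plain per-million rescaling the difference was -0.04. Arg2, the mitochondrial arginase, was at 0 in the 4 livers and at 4.89, 6.03, 7.62 and 4.99 in the kidneys. A count of 0 in liver allows a signal of up to 5.20 to 6.00, so no fold is given for Arg2, and its 2-fold call was lost without mouse 2 or mouse 3. The genes for the 2 steps of creatine synthesis were high in different organs. Gatm, which makes guanidinoacetate, had 36, 31.2, 33.4 and 45.9 in liver, against 1239.6, 1236, 1245 and 1211 in kidney (-5.05, SE 0.11, adjusted p = 1.2e-20). Gamt, which methylates it to creatine, had 296, 307, 336 and 266 in liver, against 14, 18.1, 17.8 and 12.1 in kidney (4.21, SE 0.15, adjusted p = 6.4e-16).

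Glutamine, ammonia and acid-base genes also fell on both sides. Of 22 tested, 7 were over 2-fold higher in liver and 9 lower. Gls2, the liver-type glutaminase, had 292, 356, 245 and 328 in liver, against 0.698, 1.1, 0.635 and 0.712 in kidney (7.42, SE 0.24, adjusted p = 6.5e-18). Slc38a3, a glutamine transporter, had 864, 959, 827 and 785 in liver, against 25.8, 37.8, 30.5 and 14.2 in kidney (5.01, SE 0.14, adjusted p = 2.3e-18). Rhcg, an ammonia channel of the collecting duct, had 2, 1.73, 1.86 and 0 in liver, against 43.3, 54.3, 47 and 42.7 in kidney (-4.44, SE 0.37, adjusted p = 1.8e-08). Glul, glutamine synthetase, was higher in liver by 0.82 and was not called over 2-fold. Slc4a4, the basolateral bicarbonate cotransporter of the proximal tubule, differed by -3.15 and Slc9a3, its apical sodium-proton exchanger, by -2.96.

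Core gluconeogenesis genes differed little between the organs, by amounts that depended on the scaling. Of 27 genes of gluconeogenesis, fructose and glycogen, 7 were over 2-fold higher in liver and 2 lower, and the median of 0.23 turned to -0.39 after plain per-million rescaling, with 4 then over 2-fold lower. G6pc, glucose 6-phosphatase, had 599.9, 647, 522 and 505 in liver, against 674, 653, 626 and 615 in kidney. The groups overlapped and the difference (-0.18, SE 0.09, adjusted p = 0.093 at any size) missed the threshold, and reached -0.24 and passed it without mouse 2. After plain per-million rescaling G6pc was called lower in liver, at -0.81 (adjusted p = 9.2e-10, limma). Pck1, the cytosolic PEP carboxykinase, had 3009, 2769, 3233 and 3102 in liver, against 1834, 2308, 2721 and 2194 in kidney (0.43, SE 0.08, adjusted p = 0.00011 at any size), a difference of -0.19 after plain per-million rescaling. Fbp1, fructose bisphosphatase, differed by -0.31 and Khk, ketohexokinase, by -0.33, both at any size, but neither was called with DESeq2, and Khk lost that call without mouse 3. For these 4 genes liver and kidney were both among the 3 tissues with the highest levels of 15. Genes of glycogen synthesis and fructose uptake differed more. Gys2, the liver glycogen synthase, had 142, 169.9, 124 and 93.5 in liver, against 8.38, 14.2, 7.62 and 12.1 in kidney (3.53, SE 0.20, adjusted p = 7.9e-11). Slc2a5, the fructose transporter GLUT5, had 4, 5.2, 1.86 and 0 in liver, against 61.4, 68, 41.9 and 47.7 in kidney (-4.16, SE 0.36, adjusted p = 4.9e-08).

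Glycolysis genes were called over 2-fold about as often as all genes tested. Of 25, 1 was over 2-fold higher in liver and 2 lower, against 5.84% and 6.5% over all genes. After plain per-million rescaling 6 were over 2-fold lower, and at any size 3 were higher and 15 lower, in place of 7 and 7. Ldhb, the heart-type lactate dehydrogenase subunit, had 74, 98.8, 121 and 93.5 in liver, against 1343, 1408, 1423 and 1336 in kidney (-3.84, SE 0.10, adjusted p = 3.3e-18). Ldha, the muscle-type subunit, was higher in liver by 0.98 and was not called over 2-fold. Hk1, the low-capacity hexokinase, had 14, 13.9, 13 and 3.53 in liver, against 43.3, 40.0, 38.1 and 31.3 in kidney (-1.84, SE 0.28, adjusted p = 0.025). Mouse 4 had the lowest liver value, and without it the adjusted p was 0.24, so that 1 listed gene was then over 2-fold lower.

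**Figure D3:**
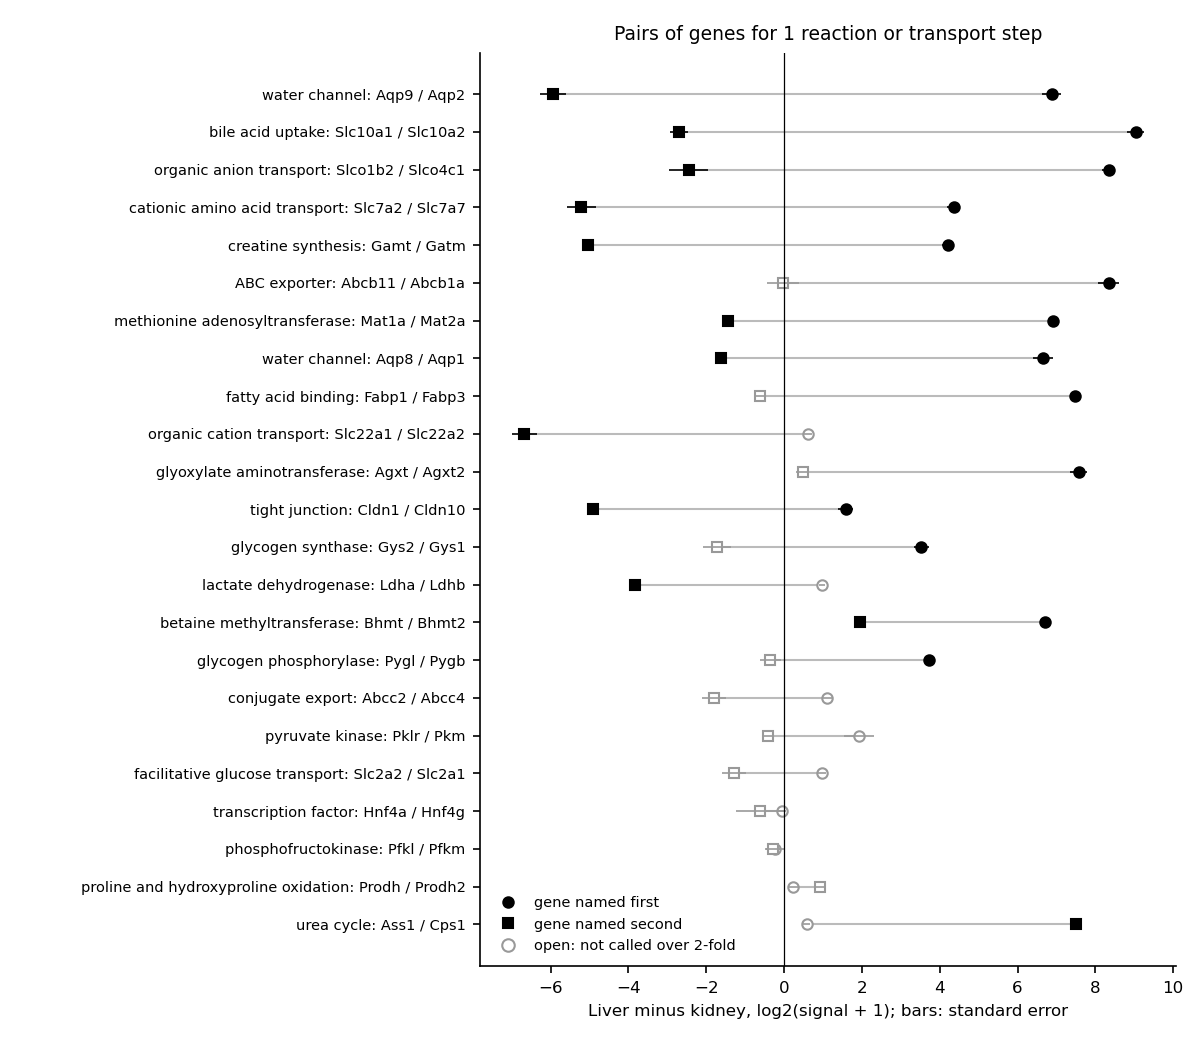
Liver minus kidney on the log2(signal + 1) scale for both genes of 23 pairs that serve 1 reaction or transport step, as a circle for the gene named first and a square for the gene named second, with standard errors and filled where the 2-fold test was passed. Pairs such as Gamt and Gatm, Mat1a and Mat2a, and Slc10a1 and Slc10a2 have 1 gene on each side of 0.

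Pairs were listed as a liver member and a kidney member for 1 reaction or transport step, with earlier results of these data known. That choice favoured opposite calls, so the counts describe the listed pairs only. Over all genes tested, 5.84% were over 2-fold higher in liver and 6.5% lower. Among 28 pairs with both genes tested, 19 were called in opposite directions at any size and 12 over 2-fold. Without the arginases, of which Arg2 is at 0 in liver, 11 pairs were opposite over 2-fold. The count of pairs opposite over 2-fold was 9 whichever mouse was left out and 6 with DESeq2. Mat1a, the methionine adenosyltransferase of liver, had 2042, 2329, 2343 and 2124 in liver, against 14, 22.5, 15.2 and 19.2 in kidney (6.90, SE 0.11, adjusted p = 7.3e-24). Mat2a, the enzyme of most other tissues, had 94, 123, 104 and 101 in liver, against 281, 283, 304 and 276 in kidney (-1.44, SE 0.11, adjusted p = 0.0032). Aqp9, a channel for water and glycerol, had 238, 309, 353 and 275 in liver, against 0.698, 3.29, 0.635 and 2.14 in kidney (6.88, SE 0.25, adjusted p = 1.8e-16). The basolateral exporter of cationic amino acids Slc7a7 had 2, 0, 1.86 and 0 in liver, against 62.1, 52.6, 70.5 and 66.2 in kidney (-5.21, SE 0.37, adjusted p = 5.1e-10), while Slc7a2, which imports them, was higher in liver by 4.36. Slco1b2, the hepatocyte uptake carrier of organic anions, was higher in liver by 8.34, and Slco4c1, a kidney carrier of the family, differed by -2.45, with adjusted p-values of 0.085, 0.13 and 0.18 without mouse 1, 2 and 4.

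Amino acid breakdown leaned to liver. Of 53 genes tested, 23 were over 2-fold higher in liver and 4 lower, with a median of 0.92. With plain per-million rescaling the median was 0.29, and at any size 27 were higher and 16 lower, in place of 37 and 7. Tat, tyrosine aminotransferase, had 2867, 2214, 2008 and 2345 in liver, against 27.9, 15.9, 6.35 and 16.4 in kidney (7.21, SE 0.15, adjusted p = 1.1e-21). Tdo2, which opens the tryptophan ring, had 1066, 1366, 819 and 829 in liver, against 6.28, 7.12, 6.35 and 3.56 in kidney (7.22, SE 0.15, adjusted p = 5e-22). Agxt, which removes glyoxylate before it becomes oxalate, had 468, 505, 516 and 517 in liver, against 1.4, 2.19, 0.635 and 2.85 in kidney (7.57, SE 0.21, adjusted p = 3.6e-19). In these 3 genes kidney held a small fraction of the liver level. The 4 genes over 2-fold lower in liver were Aadat, Dao, Acmsd and Ddo, with differences of -4.05, -4.46, -2.84 and -1.73. Ddo lost the 2-fold call when any 1 mouse was left out, with adjusted p-values of 0.071 to 0.12. Aadat, an aminotransferase of lysine and kynurenine breakdown, had 80.0, 79.8, 65 and 79.4 in liver, against 1345, 1488, 1182 and 1100.5 in kidney (-4.05, SE 0.10, adjusted p = 5.2e-19). Dao, D-amino acid oxidase, had 4, 1.73, 1.86 and 8.82 in liver, against 95.6, 105, 91.5 and 94 in kidney (-4.46, SE 0.29, adjusted p = 2.4e-10). Of 16 one-carbon and folate genes, 2 were over 2-fold higher in liver and 2 lower. Folr1, the folate receptor of the tubule brush border, had 6, 1.73, 3.72 and 10.6 in liver, against 298, 347, 379 and 313 in kidney (-5.88, SE 0.25, adjusted p = 5.9e-15).

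Genes of fat synthesis were mostly higher in liver, and genes of fat use fell on both sides. Of 39 cholesterol and fatty acid synthesis genes, 23 were over 2-fold higher in liver and 1 lower, with a median of 1.89. Insig1, a sterol sensor, had 1318, 1019.6, 938 and 1057 in liver, against 94.9, 80.6, 62.9 and 59.8 in kidney (3.86, SE 0.10, adjusted p = 3.4e-18). Scd1, the stearoyl-CoA desaturase, had 4029, 2436, 1239 and 2052 in liver, against 346, 414, 281 and 209 in kidney (2.88, SE 0.14, adjusted p = 1.6e-11). The livers ranged widely, with mouse 1 highest and mouse 3 lowest. Lpl, lipoprotein lipase, which releases fatty acids from circulating triglyceride, was the member lower in liver, with 122, 128, 109.6 and 97, against 616, 696, 932 and 831 in kidney (-2.73, SE 0.12, adjusted p = 3.6e-12). Of 37 genes of fatty acid oxidation and ketone bodies, 8 were over 2-fold higher in liver and 6 lower, or 4 higher and 6 lower after plain per-million rescaling. At any size 25 were higher and 7 lower, with a median of 0.63. With plain per-million rescaling these became 13 and 14, with a median of 0.01. Oxct1, which is needed to burn ketone bodies, had 44, 36.4, 52 and 56.5 in liver, against 911, 887, 972 and 859.8 in kidney (-4.25, SE 0.11, adjusted p = 2.3e-18), and liver was the lowest of the 15 tissues. Acadm, the medium-chain acyl-CoA dehydrogenase, had 339.9, 399, 362 and 353 in liver, against 1400.1, 1651, 1840.0 and 1559 in kidney (-2.14, SE 0.08, adjusted p = 1.5e-11). Fabp1, the liver fatty acid binding protein, had 10742, 9720.5, 8578 and 8241 in liver, against 48.9, 52.6, 58.5 and 43.5 in kidney (7.49, SE 0.09, adjusted p = 1.3e-26).

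Enzymes that oxidise and conjugate foreign compounds were mostly higher in liver, with a smaller set higher in kidney. Of 42 P450 enzymes of steroids and xenobiotics, 34 were over 2-fold higher in liver and 2 lower, with a median of 5.82. Cyp2e1, which oxidises ethanol and small solvents, had 2911, 3132, 3798 and 2952 in liver, against 58.6, 66.3, 89 and 67 in kidney (5.50, SE 0.09, adjusted p = 9.8e-24). The 2 genes lower in liver were Cyp2j11 and Cyp4b1. Cyp2j11 had 2, 1.73, 0 and 3.53 in liver, against 153, 166, 186 and 163 in kidney (-6.08, SE 0.31, adjusted p = 2.8e-13), and Cyp4b1 differed by -1.84. Conjugation enzymes were more evenly placed, with 19 of 42 over 2-fold higher in liver and 8 lower. With plain per-million rescaling 16 were over 2-fold higher and 12 lower. Paralogues of 1 family stood on both sides. Gsta3 had 2108, 2363, 1992 and 1983 in liver, against 154, 155, 111 and 99.7 in kidney (4.04, SE 0.10, adjusted p = 2.1e-19). Gsta2 had 26, 31.2, 22.3 and 30.0 in liver, against 697, 973, 823 and 647 in kidney (-4.79, SE 0.13, adjusted p = 8.3e-19). Both encode alpha-class glutathione transferases, and the caution on near-identical copies applies. Acsm2, a medium-chain acyl-CoA synthetase that starts glycine conjugation, had 20.0, 3.47, 7.43 and 7.06 in liver, against 831, 850.1, 1016 and 855 in kidney (-6.63, SE 0.21, adjusted p = 1.4e-17).

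**Figure D4:**
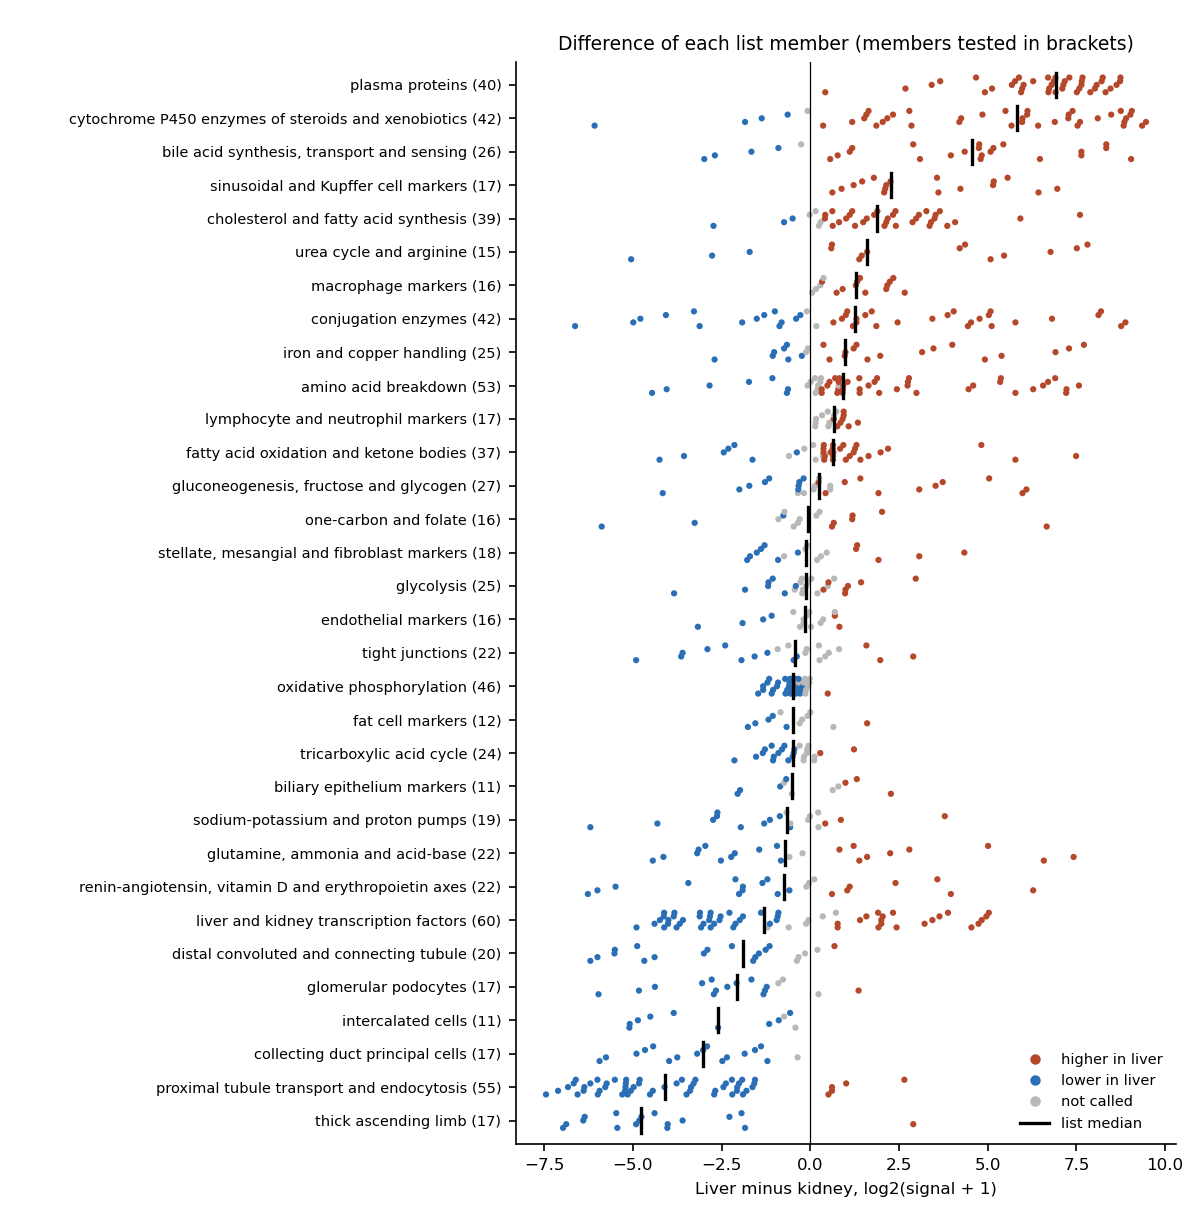
Liver minus kidney on the log2(signal + 1) scale for each tested member of 32 lists, with the number tested in brackets, coloured by the test at any size and with a bar at the list median. Plasma protein and P450 lists lie to the right of 0, tubule lists to the left, and gluconeogenesis and glycolysis genes around 0.

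The proximal tubule list was almost wholly lower in liver, with 49 of 55 genes over 2-fold lower and 1 higher, and a median of -4.11. Cubn, coding for cubilin, the partner of megalin, had 2, 0, 3.72 and 1.76 in liver, against 256, 278, 309 and 291 in kidney (-6.83, SE 0.27, adjusted p = 1.1e-15). Slc22a6, the organic anion transporter OAT1, had 4, 1.73, 3.72 and 12.3 in liver, against 251, 330.5, 294 and 288 in kidney (-5.74, SE 0.26, adjusted p = 2.4e-14). Slc22a2, the organic cation transporter OCT2, had 0, 0, 1.86 and 0 in liver, against 113, 132, 144 and 138 in kidney (-6.67, SE 0.33, adjusted p = 1.4e-13). In each of these, liver stood for at most 12 counts over its 4 libraries. Slc5a12, a lactate cotransporter, had 2, 0, 0 and 3.53 in liver, against 79.6, 65.2, 73.7 and 81.9 in kidney (-5.30, SE 0.37, adjusted p = 2.5e-10). Miox, which starts inositol breakdown, had 34, 31.2, 20.4 and 33.5 in liver, against 2422, 2733, 2623 and 2355 in kidney (-6.39, SE 0.12, adjusted p = 1.2e-22). Slc6a19, which takes up neutral amino acids, differed by -4.11 and Slc13a3, a dicarboxylate transporter, by -3.62. Aqp1, the water channel of the proximal tubule and vessels, was less restricted, with 132, 166, 102 and 173 in liver, against 446, 452, 410.4 and 437 in kidney (-1.63, SE 0.11, adjusted p = 5.6e-05). The member higher in liver over 2-fold was Slc22a30, of the organic anion transporter family, with 162, 169.9, 158 and 134 in liver, against 16.8, 21.9, 25.4 and 34.9 in kidney (2.65, SE 0.18, adjusted p = 2.3e-08). Among all solute carrier genes with the Slc prefix, 24 of 280 tested were over 2-fold higher in liver and 72 lower. All 8 tested genes of the sodium-driven Slc5 family were over 2-fold lower in liver. In the Slc22 family, 4 of 22 were over 2-fold higher and 14 lower, whereas among 39 mitochondrial carriers of the Slc25 family 5 were higher and 3 lower.

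Genes of the later nephron segments, and of podocytes in the glomerulus, were mostly lower in liver as well. In the thick ascending limb list, 14 of 17 genes were over 2-fold lower in liver and 1 higher, with a median of -4.76. Slc12a1, the furosemide-sensitive cotransporter NKCC2, had 6, 8.67, 9.29 and 3.53 in liver, against 682, 636, 647 and 569.9 in kidney (-6.40, SE 0.17, adjusted p = 1.7e-19). Kcnj1, the potassium channel ROMK, had 0, 3.47, 0 and 0 in liver, against 183, 191, 177 and 177 in kidney (-6.97, SE 0.33, adjusted p = 5.1e-14). Slc12a1 and Kcnj1 stood for 15 and 2 counts over the 4 livers. The member higher in liver, Cldn14, a tight junction claudin, had 14, 12.1, 5.57 and 5.29 in liver, against 0, 0.548, 0 and 0.712 in kidney (2.90, SE 0.52, adjusted p = 0.0058), with an adjusted p of 0.063 without mouse 1. In the distal convoluted and connecting tubule list 11 of 20 were over 2-fold lower and 0 higher. Slc12a3, the thiazide-sensitive cotransporter, had 8, 10.4, 9.29 and 12.3 in liver, against 517, 516, 499 and 462 in kidney (-5.52, SE 0.15, adjusted p = 8.4e-19). In the principal cell list 14 of 17 were over 2-fold lower and 0 higher. Aqp2, the water channel that vasopressin moves to the membrane, had 0, 3.47, 1.86 and 0 in liver, against 122, 129.9, 120.1 and 91.2 in kidney (-5.94, SE 0.34, adjusted p = 3.5e-12). Liver values of Aqp2 stood for 3 counts over 4 libraries. Hsd11b2, which protects the aldosterone receptor from glucocorticoids, had 6, 5.2, 5.57 and 8.82 in liver, against 145, 176, 141 and 164 in kidney (-4.43, SE 0.20, adjusted p = 1.6e-13). In the intercalated cell list 6 of 11 were over 2-fold lower and 0 higher. Atp6v1g3, a proton pump subunit of these cells, had 2, 1.73, 5.57 and 0 in liver, against 92.1, 95.4, 91.5 and 88.3 in kidney (-5.10, SE 0.34, adjusted p = 1.8e-10). These cells and the principal cells form the collecting duct. At any size 9 of 11 intercalated cell genes and 16 of 17 principal cell genes were lower in liver, and 0 were higher in either list. In the podocyte list 8 of 17 were over 2-fold lower, or 5 with DESeq2, and 0 higher. Podxl, coding for podocalyxin, which coats podocytes and endothelium, had 6, 10.4, 9.29 and 14.1 in liver, against 79.6, 96.5, 80.7 and 89.8 in kidney (-3.05, SE 0.22, adjusted p = 1.4e-08). Among the 15 tissues Podxl was highest in lung, at a mean of 177.

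**Figure D5:**
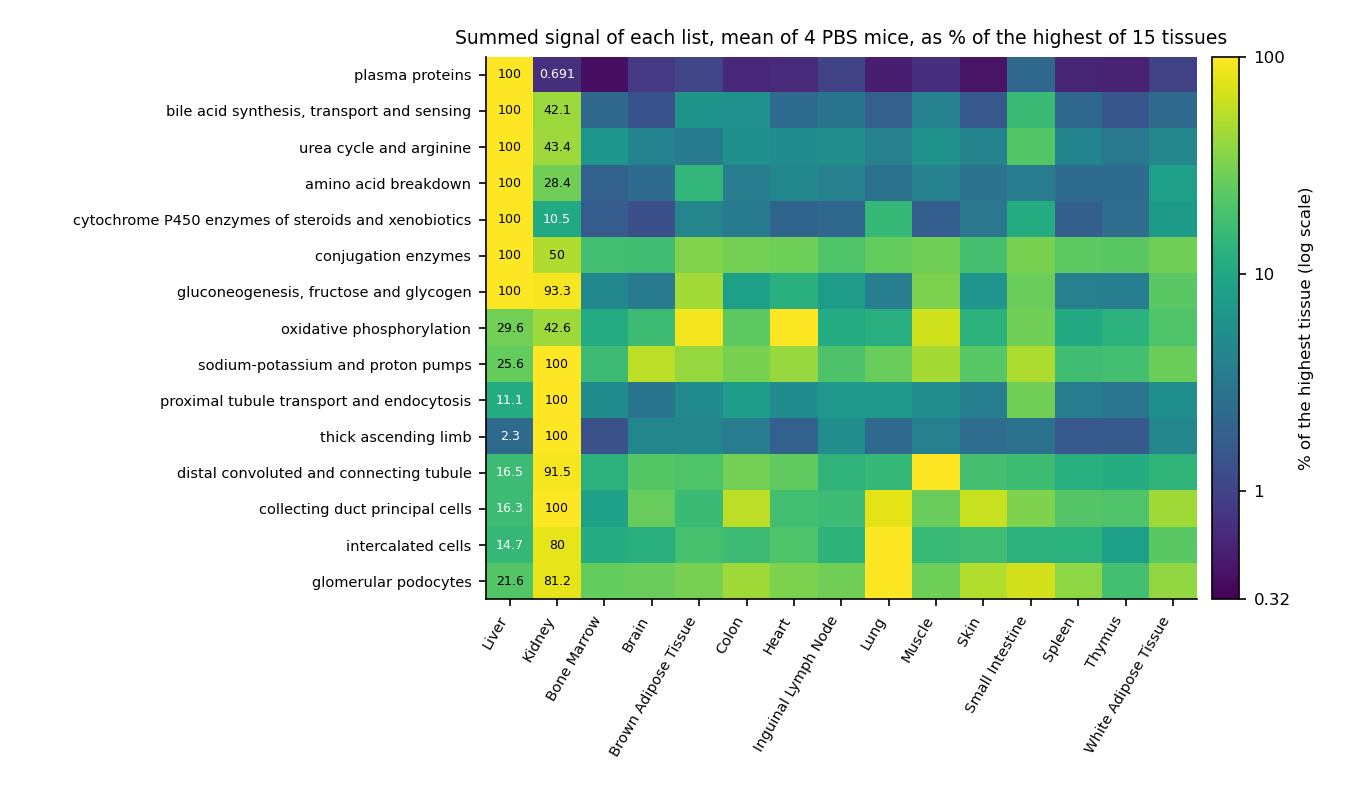
Summed signal of 15 lists in each of the 15 tissues of the PBS mice, as a percentage of the tissue with the highest sum (colour, log scale; printed for liver and kidney, the 2 columns on the left). The plasma protein list reaches 100% in liver and 0.691% in kidney, the thick ascending limb list 2.3% in liver and 100% in kidney, and the gluconeogenesis list 100% in liver and 93.3% in kidney.

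Levels in the organ with less of a list were set against the other 13 tissues. The thick ascending limb list summed in liver to 2.3% of its kidney level, and in the other 13 tissues to 1.32 to 5.48% with a median of 2.73%. The proximal tubule list summed in liver to 11.1% of kidney, against 2.87 to 29% elsewhere with a median of 5.21%. Liver thus stood inside the range of the other tissues for both lists. Not every kidney list summed highest in kidney. The podocyte and intercalated cell lists summed highest in lung, with kidney at 81.2% and 80% of it. The distal convoluted and connecting tubule list summed highest in muscle, with kidney at 91.5%. The summed signal of kidney stood above all 13 for several liver lists, but not for all. The bile acid list summed in kidney to 42.1% of its liver level, against at most 16% elsewhere, and the urea cycle list to 43.4%, against at most 21.3%. A few genes made up most of both kidney sums. In a bile acid sum of 3093.9 to 3417.6, Slc27a2, which was higher in kidney, averaged 2606. In a urea cycle sum of 3786.5 to 4083.2, Ass1 averaged 1737 and the kidney-high Gatm 1233. The order of tissues without these genes was not tested. The amino acid breakdown list summed in kidney to 28.4% of liver, against at most 14.2% elsewhere, and the conjugation list to 50%, against at most 33.5%. In an amino acid breakdown sum of 6368.1 to 7159.5 in kidney, the kidney-high Aadat averaged 1279. Kidney did not stand above the other tissues in the plasma protein list, as given above. In the P450 list kidney summed to 10.5% of liver, against up to 15.1% elsewhere. In the fatty acid oxidation and ketone body list it summed to 39.8%, against up to 85.9%. Of the 773 genes over 2-fold higher in liver, 588 (76.1%) had their highest mean in liver among the 15 tissues and in 94 of these kidney came next. Of the 859 over 2-fold lower, 449 (52.3%) were highest in kidney and in 33 of these liver came next. Over all 13225 genes tested, liver was highest for 1108 and kidney for 881. Each called set was picked for being higher in the organ concerned than in the other, which raises such a share in advance.

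Endocrine axes were divided by role. Of 22 genes of the renin-angiotensin, vitamin D and erythropoietin list, 4 were over 2-fold higher in liver and 7 lower. Agt, the angiotensin precursor, had 839.8, 844, 1072 and 989.7 in liver, against 69.1, 73.4, 87 and 80.5 in kidney (3.58, SE 0.10, adjusted p = 1.1e-17). Ren1, coding for renin, which cleaves it, had 4, 0, 0 and 1.76 in liver, against 160.5, 167, 138 and 128 in kidney (-6.27, SE 0.34, adjusted p = 1.2e-12). Precursor and enzyme genes were thus high in different organs. Cyp24a1, which inactivates vitamin D, had 0, 0, 1.86 and 0 in liver, against 60.7, 49.9, 59.7 and 59.8 in kidney (-5.49, SE 0.39, adjusted p = 3.8e-10). Liver values of Ren1 and Cyp24a1 stood for 3 and 1 counts. Kl, coding for klotho, the FGF23 coreceptor, had 8, 5.2, 1.86 and 3.53 in liver, against 349.7, 327, 356 and 297 in kidney (-6.00, SE 0.22, adjusted p = 2.5e-16). Of 25 iron and copper genes, 11 were over 2-fold higher in liver and 1 lower, or 0 lower without mouse 2 and 3 lower after plain per-million rescaling. Hamp, coding for hepcidin, the hormone that blocks iron export, had 1252, 1623, 1044 and 1492 in liver, against 7.68, 6.03, 6.99 and 9.97 in kidney (7.29, SE 0.14, adjusted p = 1.9e-22). Its close copy Hamp2 could share reads with it.

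Pumps and the respiratory chain leaned to kidney. Atp1b1, the beta subunit of Na,K-ATPase, had 68, 57.2, 63.2 and 51.2 in liver, against 403, 386, 473 and 359.7 in kidney (-2.74, SE 0.11, adjusted p = 1.2e-12). Fxyd2, a regulator of this pump in kidney, had 28, 32.9, 13 and 38.8 in liver, against 1842, 2129, 2058 and 1997 in kidney (-6.20, SE 0.16, adjusted p = 9.3e-20). Fxyd1, another regulator of the pump, ran the other way, with 399.9, 409, 379 and 337 in liver, against 28.6, 19.2, 26.1 and 34.2 in kidney (3.79, SE 0.15, adjusted p = 1.6e-14). Of 21 subunits of the vacuolar proton pump with the Atp6v prefix, 10 were over 2-fold lower in liver and 0 higher, with a median of -1.3. Oxidative phosphorylation genes were mostly lower in liver, by an amount that depended on the scaling. At any size 37 of 46 nuclear genes were lower in liver and 1 was higher, with a median of -0.48, and 2 passed the 2-fold test. After plain per-million rescaling 45 were lower, 13 of them over 2-fold, with a median of -1.11, and with DESeq2 0 were over 2-fold lower. The member higher in liver was Uqcrq, of complex III, at 0.49, a difference that turned to -0.13 after plain per-million rescaling. In the tricarboxylic acid cycle list 14 of 24 were lower at any size and 2 higher, with a median of -0.49. After plain per-million rescaling its median was -1.11, with 10 over 2-fold lower in place of 2.

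Other cell types differed as well. All 17 tested sinusoidal and Kupffer cell markers were higher in liver, 11 over 2-fold, with a median of 2.26. Clec4g, a lectin of the sinusoidal endothelium, had 138, 137, 113 and 108 in liver, against 0 in the 4 kidneys, at least 63.7-fold higher when 3 counts per kidney library are taken as the limit. Clec4f, the Kupffer cell lectin, had 116, 127, 79.9 and 95.3 in liver, against 0, 1.1, 0 and 0 in kidney (6.43, SE 0.34, adjusted p = 5.4e-13). General macrophage markers were over 2-fold higher in liver for 7 of 16 and lower for 0, or 4 of 16 higher without mouse 1 or after plain per-million rescaling. Among 16 endothelial markers, 0 were over 2-fold higher and 2 lower, or 4 lower after plain per-million rescaling. Emcn, coding for endomucin, which glomerular and venous endothelium carry, had 10.00, 8.67, 3.72 and 3.53 in liver, against 74.7, 64.1, 59.1 and 49.1 in kidney (-3.17, SE 0.26, adjusted p = 1.5e-07). Red blood cell markers summed to 4576 to 4967 in liver and 2348 to 2628 in kidney, and lymphocyte and neutrophil markers to 610.4 to 812 in liver and 325 to 457 in kidney, with 0 members over 2-fold in either list. S100a8, a neutrophil gene, was 0.94 higher in liver at any size. At any size 6 of 8 red blood cell markers and 8 of 17 lymphocyte and neutrophil markers were higher in liver, against 5 and 2 after plain per-million rescaling. The part of these cells in the gene differences above was not tested.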

How the data were processed

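RNA of 15 tissues from 4 mice given PBS was sequenced from the 3′ end with a 6-base sample barcode and a 10-base molecular identifier, per the labels' protocols. The table that the authors deposited holds a scaled signal per gene that sums to 962232 to 1603067 over these 8 libraries, not to a fixed total, so its unit is treated as signal. FastQC, MultiQC, edgeR and build mm10 are named, without versions, per the submitters' processing notes. The aligner, and whether molecular identifiers were collapsed, are not given in the sources used here. Each value was a whole multiple, within 0.1, of what 1 count is worth, which gave back the counts. The 120 columns of other mice were not used.

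Differences are liver minus kidney on log2(signal + 1) from limma 3.58.1 in R 4.3.3, with an intensity trend, mouse as a block and 3 residual degrees of freedom. Only genes that reached a signal of 1 in 4 or more of the 8 libraries entered the fit, and p-values were adjusted by Benjamini-Hochberg over 13225 genes. The 2-fold test is limma's treat with a log2 threshold of 1. The number of a mouse pairs its organs by the labels. Deviations of both organs of a mouse were hardly related (r of 0.0538, -0.00923, 0.00586 and 0.00886 over 6363 genes). Replicates differed by more than sampling noise (chi-square per degree of freedom of 1.33 to 2.34 over 12 pairs). Alternatives were another pseudocount, no filter, other scalings, edgeR 4.0.16 and DESeq2 1.42.0 on the recovered counts, no block, and each mouse left out. The limma fit was tested on simulated counts that held no effect of mouse, and edgeR and DESeq2 were not tested in this way.

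The members and lists were chosen with earlier results of these data known. Genes were named by size of difference (the 15 largest each way, and up to 6 per list), as list members against the list's direction, as members of the pairs, or as markers. Members that missed the test could also be named, and other genes named, among them those outside these rules, were chosen after their values were seen. A few genes are not reported here.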

Additional observations from a re-analysis of the deposited data

Results flagged for a closer look

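In 6 of 219 groups of 4 libraries, 1 library stood far from the other 3 relative to the range of its group, over the 138 genes named here. Chance alone puts about 1 group in 20 there. Groups whose highest library was below a signal of 10 were not checked. In liver, Aadat was lowest in mouse 3 at 65, against 79.4 to 80 in the other livers. Ctrb1 was highest in the liver of mouse 4 at 67, against 10.4 to 12 in the others. Hk1 was lowest in the liver of mouse 4 at 3.53, against 13 to 14 in the others, and the kidney values of Hk1 lay above all of these. In kidney, Acsm2 was highest in mouse 3 at 1016, against 831 to 855 in the other kidneys. Egf was highest in mouse 3 at 1431.5, against 1271 to 1298 in the other kidneys. Cyp24a1 was lowest in the kidney of mouse 2 at 49.9, against 59.7 to 60.7 in the others. Aadat, Acsm2, Egf and Cyp24a1 kept their calls without the library that stood apart. The cause of these single values was not tested.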

How the results depend on the processing

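All 1632 genes called over 2-fold kept their sign in every alternative run, and 1225 to 1632 of them kept the call. Of 118 named genes called over 2-fold, 111 kept the call throughout, and the 7 that lost it under at least 1 alternative were Arg2, Cldn1, Cldn14, Ddo, Hk1, Mat2a and Slco4c1. Plain per-million rescaling, which kept 1452 of the calls, moved the median over all genes from -0.12 to -0.67, gave 1216 genes higher and 7050 lower at any size, and gave 593 higher and 1745 lower over 2-fold. It turned the sign of Ass1 to -0.04, Calb1 to -0.43, Cdh5 to -0.24, Kdr to -0.30, Kng2 to -0.20, Pck1 to -0.19 and Uqcrq to -0.13. Median-of-ratios rescaling gave 805 higher and 810 lower. Hnf4a, which was not called, changed sign to 0.02 after median-of-ratios rescaling, 0.05 without mouse 3 and 0.02 with DESeq2, and was called lower, at -0.67, after plain per-million rescaling. DESeq2 on the recovered counts called 1861 genes higher and 1775 lower at any size, and 706 higher and 521 lower over 2-fold, and kept 1225, while edgeR called 950 and 993 over 2-fold. The cause was not tested. Leaving out 1 mouse gave 2071 to 2150 genes higher, 2715 to 2878 lower, 730 to 749 over 2-fold higher and 780 to 796 over 2-fold lower. Without the replicate block, which pairs both organs of a mouse, 2382 genes were higher and 3173 lower, and 770 and 825 over 2-fold. Among named genes the fit with no replicate block lost Hk1 over 2-fold.

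Liver was sequenced to 788203 to 924524 counts and kidney to 1350853 to 1874075, so low liver values are less precise, and a gene at 0 in liver may lie at a signal of up to 5.20 to 6.00. Lysis method cannot be told apart from organ, and 4 young female mice of 1 strain at 1 time were measured.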

Other observations

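Support cell markers differed in mixed directions. Of 18 stellate, mesangial and fibroblast markers tested, 3 were over 2-fold higher in liver and 2 lower, or 1 lower without mouse 2 or 4, and of 11 biliary epithelium markers 2 were higher and 2 lower. Among the biliary markers Spp1, coding for osteopontin, averaged 583 in liver and 2410 in kidney, where it was the highest of the 15 tissues. Of 12 fat cell markers, 1 was over 2-fold higher in liver and 0 lower. Of 22 tight junction genes, 3 were over 2-fold higher in liver and 5 lower. Cldn1, a claudin of many epithelia, differed by 1.58 and Cldn10, a claudin of the tubule, by -4.91 on the log2 scale, liver minus kidney. Cldn1 lost its 2-fold call without mouse 3 or 4, and with either left out 1 biliary marker in place of 2 was higher.

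A few genes had levels unlike the markers they are usually read with. Calb1, coding for the calcium-binding protein of the distal tubule, averaged 913 in liver and 795 in kidney, and 356 to 1320 over the 15 tissues. Pecam1, an endothelial adhesion gene, averaged 3580 in liver and 2030 in kidney, while the endothelial genes Cdh5 and Kdr averaged 40 and 30.6 in liver and 30.2 and 24.9 in kidney. Car12, a membrane carbonic anhydrase, averaged 7500 in liver and 1570 in kidney, with 1070 in the lowest of the 15 tissues. What these values stand for was not tested.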
